A study of Mus musculus with 12 samples.

Results

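Horizontal cells are the laterally projecting interneurons of the outer retina, and the cells described here were picked from dissociated mouse retina by the transcripts they carried. A cell was taken as a horizontal cell when it had at least 200 genes above 0, at least 2 of the transcripts of Lhx1, Onecut1, Onecut2 and Sept4 above 0, and none of Slc17a6, Pou4f2 and Rbpms, which mark ganglion cells. This rule found 256 horizontal cells among 24772 cells. The assay was Drop-seq, a droplet method in which each bead tags the 3' ends of the messenger RNA of 1 cell, and distinct molecules are counted by their molecular identifiers (UMIs). All pups were of the C57B6 strain. In oxygen-induced retinopathy (OIR), pups were raised by a foster mother and breathed 75% oxygen from day 7 to day 12, followed by room air. Normoxic pups (NORM) stayed in room air with their own mother. Retinas were taken at postnatal day 14 (P14) or 17 (P17) and used either after rod depletion or whole. At P14 there were 5 OIR libraries, of which 3 were whole retina and 2 rod-depleted, and at P17 there were 3, of which 2 were whole retina and 1 rod-depleted. Each combination of age and fraction had a single NORM library. Separate animals are not stated for the libraries, and the p-values below cover the spread among libraries only, which may be technical.

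Horizontal cells receive glutamate from photoreceptors and feed an inhibitory signal back to photoreceptor terminals and forward to bipolar cells. They are coupled to each other through gap junctions. Lhx1 and the Onecut factors are transcription factors required for making and maintaining them, and the calcium-binding protein calbindin, made from Calb1, is their usual histological marker in the mouse. In OIR, high oxygen closes capillaries and stops vessel growth, and the return to room air leaves the inner retina short of oxygen. Hypoxia-inducible factors then act on genes of glycolysis, mitochondrial turnover and vessel growth.

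Across the 12 libraries a cell had a median of 1052 UMIs, and the horizontal cells had a median of 3087 UMIs (333 to 9956) and 1719 genes, with 957729 UMIs in all. The remaining cells had a median of 1044 UMIs. The whole-retina NORM library at P17 was the shallowest, with 569 cells at a median of 432 UMIs, and it held no horizontal cell. The columns used for whole-retina NORM at P14 carry replicate number 8 where the label has 1, which makes this match the least sure of the 12. Of the 14 cell barcodes that libraries shared, none belonged to a horizontal cell. Scrublet, a doublet caller, marked 0.516% to 3.17% of the cells of a library, 2 horizontal cells among them.

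The rule uses measured values, so the levels of its genes in the chosen cells are a description without a test, and so is every contrast with the remaining cells. Levels are means of normalised UMIs per 10000 over the horizontal cells of a library, and are given as the mean ± SD over the 10 libraries that held at least 10 horizontal cells. Lhx1 averaged 8.27 ± 3.18 per 10000 in horizontal cells and 0.0282 in the remaining cells. Sept4, a septin of the cytoskeleton, averaged 42.3 ± 8.92 per 10000 in horizontal cells, against 2.38 in the remaining cells. Onecut1 had 1.69 and Onecut2 6.20 per 10000 in horizontal cells, against 0.0201 and 0.0593 in the remaining cells. Calb1, which the rule did not use, averaged 30.5 ± 12.2 per 10000 in horizontal cells (18.2 to 58.0) and 0.459 in the remaining cells. Calb1 was above 0 in 74.2% of horizontal cells and in 3.70% of all other cells. The label of horizontal cell therefore had support from Calb1 in all 10 libraries, but not in every cell.

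The cells that met the rule were not all alike. The most frequent combination was Onecut2 with Sept4 and nothing else, in 67 cells (26.2%), and it had 7.31 Calb1 per 10000, with a Calb1 UMI in 32.8% of cells. All 4 genes were found in 56 cells, which had 43.8 Calb1 per 10000 and a Calb1 UMI in 96.4% of cells. The 52 cells with Lhx1, Onecut2 and Sept4 had 36.8, and the 47 cells with Lhx1 and Sept4 alone had 32.9. Cells with Lhx1 therefore stood close together, and the Onecut2 and Sept4 pair stood apart. Slc4a3, an anion exchanger that moves chloride against bicarbonate, had 15.5 per 10000 in the pair and 46.6 in the cells with all 4 genes. Tfap2b, a transcription factor of horizontal and amacrine cells, had 5.39 in the pair and 18.0 in the cells with all 4 genes. Markers of other cells ran the other way: Pcp2, of rod bipolar cells, had 18.1 per 10000 in the pair and 0.813 in the cells with all 4 genes. Glul, the glutamine synthetase of Müller glia, had 13.7 in the pair and 5.32 in the cells with all 4 genes. The 10 cells with Onecut1 and Sept4 alone also had low Calb1 (12.1) and 11.5 Pcp2 per 10000. The pair made up 5.26% to 39.5% of the horizontal cells of the 10 libraries, with 22.2% to 39.5% in the P17 libraries and 5.26% to 37.5% in the P14 libraries. The effect of leaving out the pair is given below for part of the comparisons and genes. The comparisons with amacrine-marker and rod-bipolar-marker cells were not repeated without it.

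**Figure D1:**
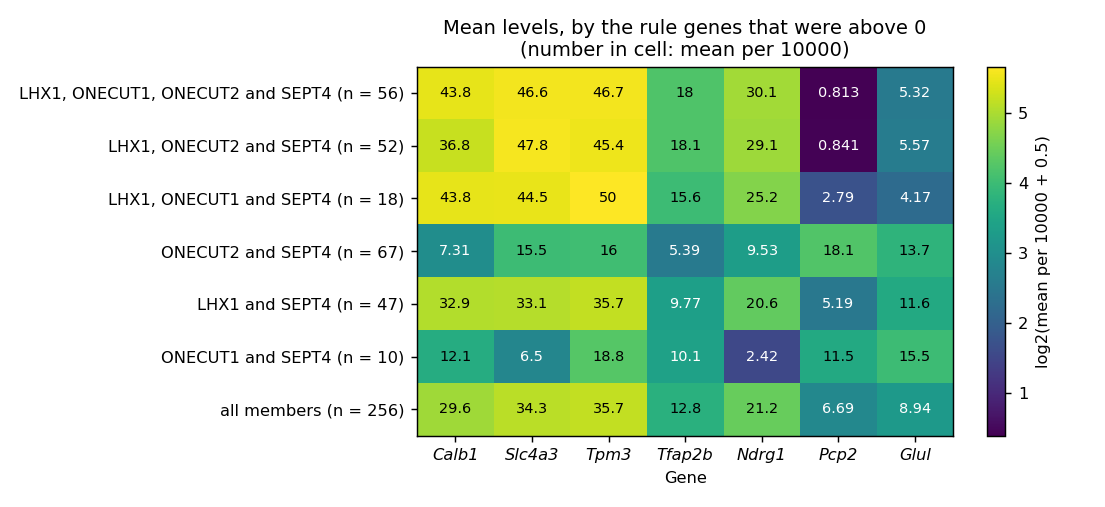
Mean level per 10000 of 7 genes (columns) in horizontal cells grouped by which of the 4 rule genes were above 0 (rows, number of cells in brackets); colour is the log2 of the level plus 0.5. Groups with Lhx1 hold 32.9 to 43.8 Calb1 per 10000, and the Onecut2 and Sept4 pair holds 7.31 with 18.1 Pcp2. Combinations of fewer than 10 cells are not drawn.

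At the edge of the rule, the 125 cells with exactly 2 of the 4 genes had 17.2 Calb1 per 10000 and a Calb1 UMI in 52.0% of cells, and the 75 cells with 3 genes had 39.8 and 94.7%. Just outside, the 4953 cells with exactly 1 of the 4 genes had 0.639 Calb1 per 10000 and a Calb1 UMI in 5.03% of cells, and 4735 of these had Sept4 alone. A further 28 cells met the rule for the 4 genes but carried a ganglion cell transcript. They had 51.6 per 10000 of Nefl, the light neurofilament subunit, and 14.9 of Calb1. At the depth limit, the 9 members with 200 to 400 genes had 37.2 Calb1 per 10000.

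Horizontal cells made up 0.314% to 1.79% of the cells in the 11 libraries that held any. In OIR rod-depleted retina the share was 0.725% and 1.05% at P14 and 1.39% at P17, against 1.79% at P14 and 0.682% at P17 in NORM rod-depleted retina. In OIR whole retina it was 0.314%, 0.819% and 1.16% at P14 and 1.11% and 1.79% at P17, against 0.657% at P14 and 0 of 569 cells at P17 in NORM whole retina. That 0 allows a share of up to 0.527%, counting 3 cells of the total. OIR and NORM libraries overlapped over most of their range. Shares averaged 1.05 ± 0.444% in OIR (SD, n = 8) and 0.782 ± 0.742% in NORM (SD, n = 4), and the difference of 0.264 percentage points was within the spread between libraries (two-sided exact permutation test within age and fraction, p = 0.528, adjusted over 3 comparisons 0.792). The smallest p that these 72 arrangements allow is 0.0139. Without the shallow NORM library the difference was 0.00331 points, and the depth of that library cannot be told apart from its group. Shares averaged 0.996 ± 0.688% at P17 (n = 5) and 0.931 ± 0.468% at P14 (n = 7), with an exact permutation p of 0.825. This difference of 0.0646 points changed sign when each cell was thinned to 500 UMIs, to -0.167 points. Rod-depleted retina had 1.13 ± 0.467% (n = 5) and whole retina 0.837 ± 0.591% (n = 7), a difference of 0.291 points with an exact permutation p of 0.342 and an adjusted p of 0.792. Shares are of cells recovered after dissociation, and intervals cover counting error only.

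**Figure D2:**
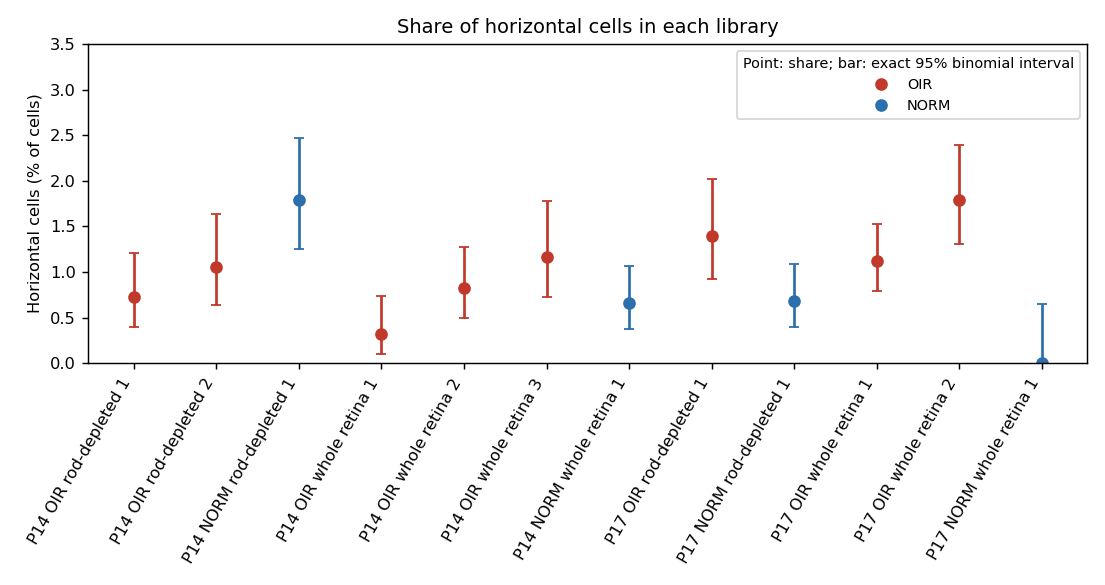
Horizontal cells as a percentage of the cells with at least 200 genes in each library (points), with exact 95% Clopper-Pearson intervals (bars), OIR in red and NORM in blue. OIR libraries lie between 0.314% and 1.79% and NORM libraries between 0 and 1.79%, and most intervals overlap.

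Beyond the rule genes, 25 genes led the horizontal cells by their median log2 ratio to the remaining cells, and each was higher in all 10 libraries. Calb1 came first, with a log2 ratio of 4.92 (4.29 to 5.63 over the libraries). Slc4a3 followed at 4.71, and its level was 36.5 ± 9.03 per 10000 in horizontal cells, against 0.935 in the remaining cells. The transcript annotated as 1500016L03RIK was the third, at 4.49. Tpm3, an actin-binding tropomyosin (4.27), had 38.8 ± 13.1 per 10000 in horizontal cells, against 1.76 in the remaining cells. Ndrg1, a stress-responsive gene expressed in many differentiating cells (3.66), had 23.3 ± 8.69 and 1.60 per 10000. The list went on with Pcbd1, a cofactor of the homeodomain factor Hnf1 (3.30), Tmeff2, a transmembrane protein with follistatin domains (3.30), and Wnk4, a kinase that controls chloride cotransporters (3.17). Utrn, the dystrophin relative utrophin, stood at 3.10, Lrrc4, a postsynaptic adhesion protein also called netrin-G ligand 2, at 3.07, and Sept7, a core septin, at 2.95. Akap12, a scaffold of protein kinase A, was the last of the 25 at 2.74. Some of these were also high in other neurons. Atp1b1, a subunit of the sodium pump, had 18.3 per 10000 in horizontal cells, 12.9 in cells picked by amacrine markers and 24.2 in cells picked by ganglion cell markers. The noncoding RNA Snhg11 had 74.2, 50.7 and 103 per 10000 in the same sets. Calb1, in contrast, was at 2.23 per 10000 in the amacrine-marker cells.

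**Figure D3:**
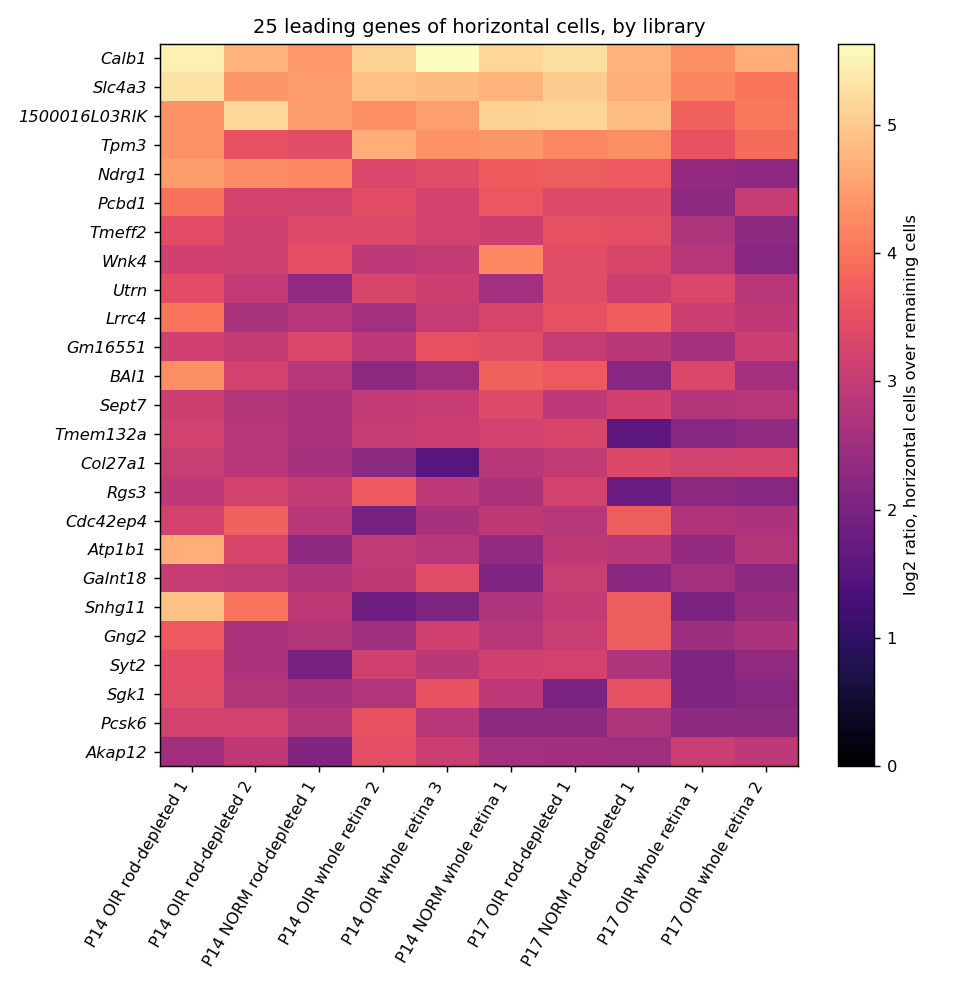
Log2 ratio of the level in horizontal cells to that in the remaining cells of the same library, each plus 0.5 per 10000, for the 25 leading genes (rows) in the 10 libraries with at least 10 horizontal cells (columns). Every ratio is above 0, and Calb1 ranges from 4.29 to 5.63. The genes were chosen by this ratio, so the map is a description.

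Known horizontal cell genes outside the rule were also seen. Gja10, the connexin of horizontal cell gap junctions, had 0.575 ± 0.409 per 10000 in horizontal cells and 0.002 in the remaining cells. Megf11 and Megf10, adhesion receptors that space the horizontal cell mosaic in the mouse, had 3.56 and 0.981 per 10000 in horizontal cells, against 0.132 for each in the remaining cells. Onecut3, another factor of the Onecut family, had 1.30 against 0.0113. Prox1, a homeodomain factor of horizontal and other inner retinal cells, had 9.86 against 5.60, and Isl1, found in bipolar, amacrine and ganglion cells, had 2.58 against 12.4. Adra2a, an adrenergic receptor, had 3.46 against 0.032, and Ret, a receptor for neurotrophic ligands, had 2.11 against 0.085. Foxn4, which acts in progenitors, was at 0.

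The transmitter genes were split. Slc32a1, the vesicular transporter that loads GABA, had 2.37 ± 0.647 per 10000 in horizontal cells (1.77 to 3.71) and 9.71 in amacrine-marker cells, a set picked by Slc32a1 and Gad1 among other genes. The GABA-synthesising enzymes Gad1 and Gad2 were low: Gad1 had 0.683 per 10000 in horizontal cells with a UMI in 6 libraries, against 0.782 in all remaining cells, and Gad2 had 0.261 with a UMI in 4 libraries, against 0.548. The Gad1 mean rested on whole-retina NORM at P14, with 4.34 per 10000 (20 UMIs), against 0 to 0.809 in the other 9 libraries. Without it the mean was 0.277, and whether that level is background was not tested. Summed amacrine markers in the horizontal cells of that library were 18.0 per 10000, against 6.42 to 13.3 in the other 9, and their part in its Gad1 level was not tested. Gad2 was at 0.775, 0.866 and 0.867 in 3 whole-retina libraries and at 0 to 0.105 in the other 7. Slc32a1 had 0.722 per 10000 in all remaining cells. On the receiving side, Gria2, Gria3 and Gria4, subunits of AMPA-type glutamate receptors, had 6.28, 1.90 and 1.95 per 10000. Cacng3, an auxiliary subunit of those receptors, had 2.47 in horizontal cells and 0.356 in the remaining cells. Neurofilament Nefl had 8.13 in horizontal cells, 1.69 in the remaining cells and 67.3 in ganglion-marker cells, and Stmn2, a microtubule regulator of neurites, had 7.40 against 0.858.

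To ask whether OIR altered the transcripts of horizontal cells, levels were compared between 7 OIR and 3 NORM libraries with limma, allowing for age and fraction. Of 4276 genes tested, 2 passed a Benjamini-Hochberg adjusted p of 0.05 (0.0468%), and both were higher in OIR. They were Ldha, lactate dehydrogenase A, which turns pyruvate into lactate, and Mt1, metallothionein 1, which binds zinc and copper. At an unadjusted p of 0.05, 333 genes passed (7.79%). Their promoters are shown first, because both belong to classes of gene with known response elements. Bnip3, a mitophagy receptor and a classical hypoxia target, is shown with them because all its OIR libraries lay above all NORM libraries, although it did not pass. The windows are 300 bases, 250 before the annotated start and 50 from it, from RefSeq on GRCm38.p6, written 5' to 3' along the gene. Capitals mark the hypoxia response core ACGTG on either strand in Ldha and Bnip3, and the metal response core TGCACNC or TGCGCNC on either strand in Mt1. The Ldha window lies at chr7:46845554-46845853 on the plus strand, the Bnip3 window at chr7:138909457-138909756 on the minus strand and the Mt1 window at chr8:94178839-94179138 on the plus strand.
Ldha: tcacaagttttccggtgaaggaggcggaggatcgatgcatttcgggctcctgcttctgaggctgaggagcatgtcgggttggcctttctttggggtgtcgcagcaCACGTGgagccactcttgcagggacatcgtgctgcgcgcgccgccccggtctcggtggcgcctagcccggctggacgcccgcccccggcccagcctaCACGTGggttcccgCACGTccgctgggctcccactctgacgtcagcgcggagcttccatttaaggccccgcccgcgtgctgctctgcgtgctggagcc
Bnip3: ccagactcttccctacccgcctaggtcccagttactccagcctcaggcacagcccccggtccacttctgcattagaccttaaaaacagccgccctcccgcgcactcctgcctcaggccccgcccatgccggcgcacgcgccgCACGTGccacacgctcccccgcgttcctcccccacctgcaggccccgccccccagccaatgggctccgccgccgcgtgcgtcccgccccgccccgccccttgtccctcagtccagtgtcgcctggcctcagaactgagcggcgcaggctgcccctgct
Mt1: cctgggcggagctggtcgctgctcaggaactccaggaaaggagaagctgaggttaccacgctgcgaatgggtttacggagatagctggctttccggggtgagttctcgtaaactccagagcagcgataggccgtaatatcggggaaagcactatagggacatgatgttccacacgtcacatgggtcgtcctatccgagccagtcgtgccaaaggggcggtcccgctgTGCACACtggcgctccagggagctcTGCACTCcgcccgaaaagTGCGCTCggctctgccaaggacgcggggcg
ACGTG occurred in 19.6% of all 32851 RefSeq windows. RefSeq has 2 windows for Ldha. Counting both strands, the one printed held 5 matches in 3 stretches (first bases at -145, -144, -48, -47 and -34), and the Bnip3 window held 2 in 1 stretch. The other Ldha window, at chr7:46846832-46847131, held 0 of these cores, and the Mt1 window held 1. In Ldha and Bnip3 the CACGTG stretches read the core on both strands. The metal response core occurred in 25.7% of windows and 3 times in that of Mt1, starting at -23, 3 and 21. It was also found once in the printed Ldha window and 2 times in the other one. A match is a description of the letters and not a binding site.

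Ldha had 7.94, 17.6, 9.22 and 14.2 per 10000 in the P14 OIR libraries and 7.61, 8.77 and 10.2 in the P17 OIR libraries, against 4.68 and 1.58 in the P14 NORM libraries and 5.06 in the P17 NORM library. Every OIR library was above every NORM library, which was so for 55 of the 4276 genes (1.29%). The mean was 10.8 ± 3.74 in OIR (SD, n = 7) and 3.77 ± 1.91 in NORM (SD, n = 3), a limma log2 difference of 1.57 ± 0.31 (SE) with an adjusted p of 0.0478. Mt1 had 9.64, 11.7, 9.61 and 5.67 per 10000 in the P14 OIR libraries and 13.1, 7.17 and 26.1 in the P17 OIR libraries, against 3.73 and 0.363 in the P14 NORM libraries and 8.63 in the P17 NORM library. Of the OIR libraries, 5 of 7 were above all NORM libraries, and the groups overlapped. The mean was 11.9 ± 6.78 in OIR and 4.24 ± 4.16 in NORM, a log2 difference of 1.91 ± 0.37 with an adjusted p of 0.0478 in limma.

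Both calls leaned on whole-retina NORM at P14, the library with the less sure match and the lowest level of both genes. Without it the limma log2 difference of Ldha was 0.95 (adjusted p = 0.478) and that of Mt1 1.06 (adjusted p = 0.478). Of the 10 fits that left out 1 library each, Ldha passed in 3 (adjusted p 0.0170 to 0.478 over the fits) and Mt1 in 4 (0.00890 to 0.478), and both stayed higher in OIR in all 10. Without the Onecut2 and Sept4 pair, a choice made after seeing the data, the differences were 1.72 for Ldha (adjusted p = 0.0020) and 1.94 for Mt1 (adjusted p = 0.000984). Among cells with at least 3 of the 4 rule genes they were 1.02 for both, with limma adjusted p of 0.676 and 0.689. Whole-retina NORM at P14 had 9 such cells, under the minimum of 10, and was not in that fit. These values are therefore to be set beside the 0.95 and 1.06 without that library, and are not a separate check. The labels carry the same date for rod-depleted OIR replicate 2 and rod-depleted NORM at P14, and between these Ldha had 17.6 per 10000 in OIR (74 UMIs) and 4.68 in NORM (47 UMIs), and Mt1 had 11.7 in OIR and 3.73 in NORM (55 UMIs each). Whole-retina OIR replicate 1, with 5 horizontal cells, shares its date with whole-retina NORM at P14, and Ldha there had 17.3 per 10000 in OIR (6 UMIs) and 1.58 in NORM (13 UMIs). The direction was the same within both dates. Summed rod markers were 0.154 to 90.3 per 10000 (median 8.57) in OIR horizontal cells and 0.485 to 7.13 (median 1.96) in NORM horizontal cells. Summed markers of Müller glia were 6.19 to 53.2 (median 21.1) in OIR and 8.59 to 67.6 (median 29.2) in NORM. Summed amacrine markers were 6.42 to 13.3 (median 8.67) in OIR and 7.35 to 18.0 (median 7.55) in NORM, and summed bipolar markers were 2.96 to 38.5 (median 22.8) in OIR and 2.13 to 28.2 (median 23.8) in NORM. Whole-retina NORM at P14, on which both calls leaned, had the highest amacrine sum (18.0) and the lowest bipolar sum (2.13) of the 10 libraries. The part of these cell types in the results was not tested.

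Of the known hypoxia targets, 15 were tested and 1 passed, Ldha; 12 of 15 were higher in OIR, with a median log2 difference of 0.16, against 49.1% of all genes and a median of -0.01. Bnip3 had 2.04, 3.47, 4.25 and 3.59 per 10000 in the P14 OIR libraries and 4.34, 2.22 and 4.24 in the P17 OIR libraries, against 1.72 and 0.515 in the P14 NORM libraries and 1.38 in the P17 NORM library. All 7 OIR libraries were above all NORM libraries, and the log2 difference of 1.28 ± 0.33 did not pass (limma adjusted p = 0.312). Vegfa, the growth factor that drives vessel growth, had 0.674 to 4.60 per 10000 in OIR (median 1.07) and 0.708, 1.11 and 1.76 in NORM. Its groups overlapped, with a log2 difference of 0.16 ± 0.37, and the adjusted p was 0.945.

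Among 17 genes of glycolysis tested, Ldha was again the 1 that passed, 11 were higher in OIR and 6 lower, and the median was 0.34. Pfkl, the liver form of phosphofructokinase, had 2.76 to 5.63 per 10000 in OIR and 1.45 to 2.0 in NORM, without overlap, and a log2 difference of 1.0 ± 0.31 that did not pass (limma adjusted p = 0.388). Within the 2 shared dates Pfkl went opposite ways, with 3.75 in OIR and 1.45 in NORM rod-depleted retina, but 0.756 in OIR (2 UMIs in 5 cells) and 2.0 in NORM whole retina. Ldhb, the lactate dehydrogenase subunit that favours the reverse reaction, had a difference of -0.65 and did not pass. Of 24 nuclear-encoded respiratory chain genes none passed; 7 were higher in OIR and 17 lower, with a median of -0.11. NORM rests on 16 to 36 horizontal cells a library in all of these lists.

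In the list of cell stress and unfolded protein genes, 11 were tested and Mt1 passed, 5 being higher in OIR and 6 lower. Mt2, the neighbouring metallothionein, had 1.49 to 12.3 per 10000 in OIR and 0 to 1.55 in NORM, a log2 difference of 1.61 ± 0.46 that did not pass (limma adjusted p = 0.354). Mt1 and Mt2 are closely related in sequence, and how reads that fit several genes were counted is not stated in the labels. The same holds for Ldha, which has processed copies in the genome.

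Among the other genes of smallest p, Cep290, a protein of the ciliary transition zone, had 1.96 to 4.20 per 10000 in OIR and 0.519 to 1.63 in NORM, and a log2 difference of 1.51 ± 0.32 (limma adjusted p = 0.0571). Kdelr1, a receptor that returns proteins to the endoplasmic reticulum, had 0.462 ± 0.337 in OIR and 2.14 ± 0.685 in NORM, without overlap (log2 difference -1.64 ± 0.35, adjusted p = 0.0572). Neither passed the threshold, and both were separated in all 10 libraries. Every OIR library was above every NORM library in 55 of the 4276 genes (1.29%), and below in 44 (1.03%). Crebbp, a histone acetyltransferase, and Dkk3, a secreted protein rich in Müller glia, stood at 1.42 and -1.63, both with an adjusted p of 0.312.

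Genes that describe the work of horizontal cells gave no call for OIR. Of 18 other known horizontal cell genes tested none passed, and 7 were higher in OIR and 11 lower, with a median of -0.08. None of the 25 leading genes passed; 12 were higher and 13 lower, with a median of -0.04. Atp1b1 had 13.9 to 31.3 per 10000 in OIR and 7.46 to 21.2 in NORM, a log2 difference of 0.82 ± 0.27 that did not pass (limma adjusted p = 0.407). Megf10 had a difference of 1.06 ± 0.36 with the same adjusted p. Among 8 genes of GABA synthesis, storage and uptake none passed, with a median of -0.20. None of 9 glutamate receptor genes, 3 gap junction genes, 5 genes of MHC class I and interferon or 2 apoptosis genes passed.

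Of 7 angiogenic and guidance factors tested none passed. Angpt2, a ligand that loosens vessel walls and is made by horizontal cells in the mouse, had 0.849, 0.241, 1.17 and 1.41 per 10000 in the P14 OIR libraries and 2.06, 0.642 and 0.524 in the P17 OIR libraries. NORM horizontal cells had 2.20 and 4.65 at P14 and 1.0 at P17. The groups overlapped, 4 of 7 OIR libraries lay below all NORM libraries, and the log2 difference was -1.06 ± 0.39 (limma adjusted p = 0.517). Within the 2 shared dates the log2 differences of Angpt2 were -1.87 and -1.63, on 2 and 1 UMIs in OIR. The level of Angpt2 was 1.47 per 10000 in horizontal cells and 0.079 in the remaining cells, whereas Vegfa had 1.60 and 3.60.

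**Figure D4:**
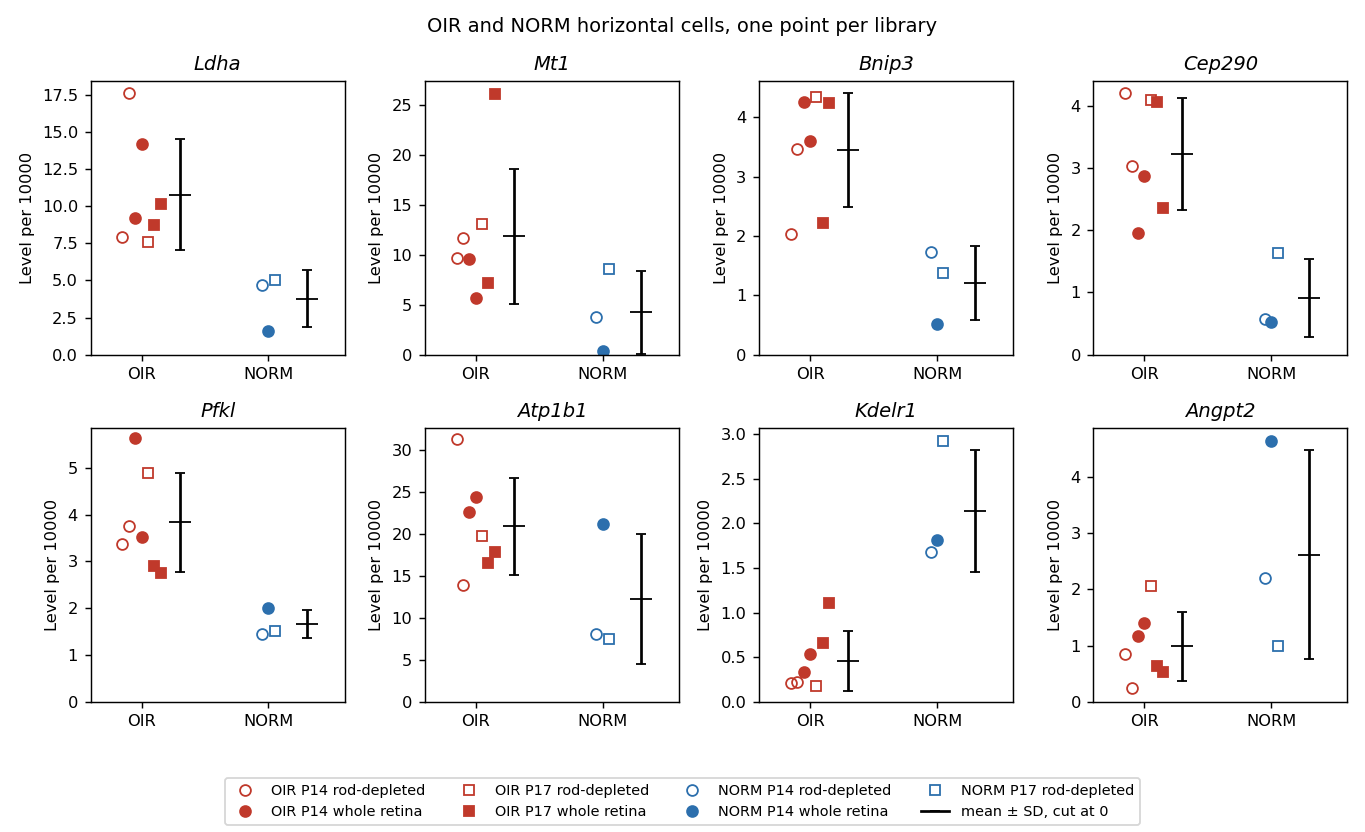
Level per 10000 in horizontal cells of 8 genes by library (points; circles P14, squares P17; open rod-depleted, filled whole retina), with OIR in red to the left of NORM in blue and the mean ± SD of each group in black. Ldha, Bnip3, Pfkl and Cep290 lie higher in all 7 OIR libraries and Kdelr1 lower; only Ldha and, with overlapping groups, Mt1 passed the adjusted threshold.

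The OIR difference was set against that in other neurons of the same libraries. In cells picked by rod bipolar markers, Ldha was higher in OIR by 1.01 on the log2 scale (limma adjusted p = 0.00702) and Mt1 by 1.98 (adjusted p = 0.00106). In amacrine-marker cells Ldha had 0.46 (adjusted p = 0.649) and Mt1 1.69 (adjusted p = 0.0197). The difference of the OIR effect between horizontal and rod-bipolar-marker cells was 0.56 ± 0.28 for Ldha (adjusted p = 0.774) and -0.07 ± 0.31 for Mt1. Between horizontal and amacrine-marker cells it was 1.11 ± 0.33 for Ldha (adjusted p = 0.685) and 0.22 ± 0.38 for Mt1. Neither gene therefore had an OIR effect shown to differ between horizontal cells and these sets. The 1 call was Scgn, the calcium-binding protein secretagogin of bipolar cells, out of 5111 genes tested against rod-bipolar-marker cells (0.0196%), with an OIR difference of 1.29 in horizontal cells and -0.83 in rod-bipolar-marker cells (difference 2.12 ± 0.37, adjusted p = 0.0234). The call was lost without any 1 of 5 libraries (adjusted p 0.106 to 0.381) and at a pseudocount of 1 (adjusted p = 0.0722). This comparison was not repeated without the Onecut2 and Sept4 pair. Against amacrine-marker cells 0 of 5307 genes were called, and 309 passed unadjusted (5.82%), as did 316 against rod-bipolar-marker cells (6.18%). Whether the OIR effect differed between ages was tested as an interaction, in which P17 has 1 NORM library. None of 4276 genes passed in limma, and 190 did so unadjusted (4.44%); Ldha had 0.90 at P17 and 1.89 at P14, a difference of -0.99 ± 0.65 with a limma adjusted p of 0.985.

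Between the ages, 5 of 4276 genes passed in horizontal cells (0.117%), 3 higher at P17 (0.0702%) and 2 lower (0.0468%), and 328 passed unadjusted (7.67%). Npy, neuropeptide Y, was lower at P17: it had 4.76, 1.94, 3.01 and 2.08 per 10000 in the P17 libraries, against 7.32, 10.9, 11.1, 10.7, 15.6 and 2.42 in the P14 libraries. The P14 library at 2.42 was whole-retina NORM, which lay among the P17 values. The limma log2 difference was -1.52 ± 0.31 (adjusted p = 0.0354), and -1.42 (adjusted p = 0.0552) without the Onecut2 and Sept4 pair. Car10, a carbonic anhydrase relative without enzyme activity, was higher: 1.03, 2.82, 2.57 and 1.32 at P17, against 0 to 0.437 at P14. No P17 library overlapped a P14 library, as in 28 of the 4276 genes (0.655%), and the difference was 1.68 ± 0.34 (adjusted p = 0.0302). Without the pair Car10 was under the minimum level for a test. The noncoding transcript annotated as GM26924 fell to 3.39 ± 2.03 at P17 (n = 4), against 12.9 ± 7.31 at P14 (n = 6), with a difference of -1.78 ± 0.32 (adjusted p = 0.0129). Left without 1 library each in 10 fits, Npy passed in 3 (adjusted p 0.00301 to 0.290), Car10 in 4 (0.0132 to 0.221) and GM26924 in 6 (0.000352 to 0.143), each with its direction kept. All 3 fell short without the P17 NORM library.

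The other 2 calls were Apoe and CYR61. Apoe, the apolipoprotein made by Müller glia, had 4.25 to 18.7 per 10000 at P17 and 0 to 6.71 at P14, a log2 difference of 2.62 ± 0.48 (limma adjusted p = 0.0129). CYR61, a secreted matrix protein also called Ccn1, had 3.40 to 8.31 at P17 and 0 to 6.66 at P14, with 2.15 ± 0.45 (adjusted p = 0.0397). Without the Onecut2 and Sept4 pair Apoe fell short at 1.60 (adjusted p = 0.380) and CYR61 at 0.90 (adjusted p = 0.761). With 1 library left out, Apoe passed in 6 of 10 fits (adjusted p 5.03e-05 to 0.143) and CYR61 in 2 (0.000173 to 0.272). Beside them, summed Müller markers, Apoe among them, were 21.1 to 67.6 per 10000 (median 42.3) at P17 and 6.19 to 31.1 (median 10.9) at P14. Summed bipolar markers were 22.8 to 38.5 (median 29.0) at P17 and 2.13 to 23.8 (median 21.9) at P14. Pcp2 of rod bipolar cells had 8.21 to 15.3 at P17 and 0 to 7.36 at P14, without overlap, and did not pass (2.17 ± 0.49, adjusted p = 0.0625). Rod-depleted NORM at P14, with the 6.66 of CYR61, had the highest summed endothelial (4.01) and pericyte (4.62) markers of the 10 libraries. The part of other cells in the age calls was not tested.

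Ndrg1, number 5 of the leading genes, had 15.4, 15.5, 12.7 and 14.6 per 10000 at P17, against 27.8, 30.2, 26.2, 30.8, 21.5 and 38.6 at P14. Every P17 library lay below every P14 library, as in 18 of the 4276 genes (0.421%). The means were 14.6 ± 1.28 at P17 and 29.2 ± 5.69 at P14, and the limma log2 difference of -0.96 ± 0.21 just missed the threshold (adjusted p = 0.0572). Without the Onecut2 and Sept4 pair it was -0.75 (adjusted p = 0.280). None of the 25 leading genes passed for age, and 20 of them were lower at P17, with a median log2 difference of -0.28, against 47.3% of all genes lower and a median of 0.02. All 12 genes tested of the neurofilament and cytoskeleton list, which holds Sept4 of the rule and Tpm3 of the leading genes, were lower at P17 and none passed (median -0.31). Nefl had -0.77 and Nefh, the heavy neurofilament subunit, -1.05. Summed levels of the rule genes and Calb1 had a median of 77.7 per 10000 at P17 and 88.5 at P14. Without the Onecut2 and Sept4 pair these medians were 96.9 and 97.9. The part of the pair in the leading and cytoskeleton lists was not tested. Of 11 immediate early genes, rapid responders to stimulation, 10 were higher at P17 and none passed (median 0.44). The stress list gave the same count of 10 of 11, none past the threshold, with a median of 0.36.

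More genes were called between the fractions than for OIR or age. Of 4276 genes, 31 passed (0.725%), 10 higher in rod-depleted libraries (0.234%) and 21 lower (0.491%). Among cells with at least 3 of the 4 rule genes the order turned, with 0 calls between the fractions and 4 between the ages. Whole-retina NORM at P14, with 9 such cells, was not in that fit. Leaving out that library alone, with all horizontal cells kept elsewhere, gave 44 calls between the fractions and 3 between the ages. No run date in the labels is shared by a rod-depleted and a whole-retina library of the fit, or by a P17 and a P14 library, and the 2 whole-retina OIR libraries at P17 carry no date. Neither the fraction nor the age can therefore be told apart from the run. Several of the genes lower in rod-depleted libraries were rod genes. Sag, rod arrestin, had 0 to 0.431 per 10000 in horizontal cells of rod-depleted retina and 1.80 to 18.9 in those of whole retina (log2 difference -3.00 ± 0.39, limma adjusted p = 5.67e-05). Pdc, Rpgrip1, Rom1 and Prph2, all genes of photoreceptor outer segments or cilia, were also lower. Summed rod markers in horizontal cells were 0.154 to 3.02 per 10000 (median 0.810) in rod-depleted retina and 7.13 to 90.3 (median 22.0) in whole retina, and their part in these calls was not tested. Without the Onecut2 and Sept4 pair they were 0.162 to 3.25 and 3.76 to 105.

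Other genes that differed are not rod genes. Scg2, secretogranin II of dense-core vesicles, had 0.185, 2.81, 1.78, 1.80 and 2.11 per 10000 in the rod-depleted libraries, against 6.26, 7.53, 7.48, 7.13 and 8.31 in the whole-retina libraries. The groups did not overlap, as in 65 of the 4276 genes lower in rod-depleted retina (1.52%), and the limma log2 difference was -2.06 ± 0.32 (adjusted p = 0.000473). Syt1, the calcium sensor of synaptic vesicle release, had 6.91 ± 1.80 in rod-depleted and 15.2 ± 2.80 in whole retina (SD, n = 5 each), with -1.10 ± 0.24 (adjusted p = 0.0261). The GABA list, which also holds general synaptic vesicle genes such as Syt1, had 6 of 8 genes with a negative difference (median -0.70), and 2 passed, Syt1 among them. Of 8 GABA and glycine receptor genes 6 had a negative difference (median -0.27), and 1 passed. Over all 4276 genes 58.9% had a negative difference (median -0.10). Of 18 known horizontal cell genes 10 had a negative difference, and 1 passed, Calb2, or calretinin (-1.85, adjusted p = 0.0470); without whole-retina NORM at P14 it had -1.21 (adjusted p = 0.317). With 1 library left out in turn, Scg2 passed in all 10 fits, Syt1 in 6 and Calb2 in 3 (highest adjusted p 0.00567, 0.0914 and 0.317 in that order). Without the Onecut2 and Sept4 pair 24 genes passed, and 15 of these were among the 31. Of the 31 genes, 26 could then be tested, and Calb2 was among those under the minimum level. Scg2 was smaller at -1.31 (adjusted p = 0.0368), and Syt1 fell short (-0.82, adjusted p = 0.125), as did Pdc (-1.66, adjusted p = 0.0590) and Prph2 (-1.41, adjusted p = 0.115). Among cells with at least 3 of the 4 rule genes, in a fit without whole-retina NORM at P14, Scg2 had -0.69 (limma adjusted p = 0.638). With that library alone left out Scg2 had -2.09 (limma adjusted p = 0.00258).

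Higher in rod-depleted horizontal cells were Malat1, a nuclear noncoding RNA, and transcripts of the mitochondrial genome. Malat1 had 414, 452, 554, 367 and 387 per 10000 in the rod-depleted libraries, against 261, 183, 324, 203 and 105 in the whole-retina libraries (1.22 ± 0.16, limma adjusted p = 5.67e-05). The mitochondrial mt-Cytb had 156 ± 26.4 in rod-depleted and 74.3 ± 7.79 in whole retina, with 1.05 ± 0.17 (adjusted p = 0.00059). Both passed in all 10 fits with 1 library left out. Neither gene overlapped between fractions, as in 43 of the 4276 genes (1.01%). A further 3 mitochondrial genes passed with them: mt-Nd1 (1.03), mt-Nd2 (1.10) and mt-Nd4 (0.97). Of the 24 nuclear respiratory chain genes, 22 were higher in rod-depleted libraries and none passed, with a median of 0.52, against 41.1% of all genes higher. Ndufs5, a nuclear-encoded complex I subunit that the list does not hold, did pass: it had 2.29 ± 0.575 in rod-depleted and 0.771 ± 0.520 in whole retina (1.34 ± 0.31, limma adjusted p = 0.0362). It passed in 2 of 10 fits with 1 library left out and had 0.98 (adjusted p = 0.198) without whole-retina NORM at P14. Hspa8, a heat shock protein, rose by 1.70 (adjusted p = 0.0362), and Snhg11 was the 1 of 25 leading genes called (0.86, adjusted p = 0.0362). With 1 library left out, Hspa8 passed in 5 and Snhg11 in 3 of 10 fits. Hspa8 was at 0.169 per 10000 (1 UMI) in whole-retina NORM at P14, against 7.27 to 14.2 in the other whole-retina libraries and 12.1 to 22.7 in the rod-depleted libraries, and without that library the difference was 0.58 (adjusted p = 0.362). Malat1 and mitochondrial shares are also read as signs of RNA quality and cell handling, and the part of handling was not tested. Counts of Hspa8, Ppia and Rps28, all with near-identical copies in the genome, are uncertain for the reason given for Ldha. Among cells with at least 3 of the 4 rule genes 22 of the 31 genes could be tested and none passed. That fit lacked whole-retina NORM at P14. Malat1 had 0.90 in it (limma adjusted p = 0.0711) and mt-Cytb 0.90 (adjusted p = 0.123).

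**Figure D5:**
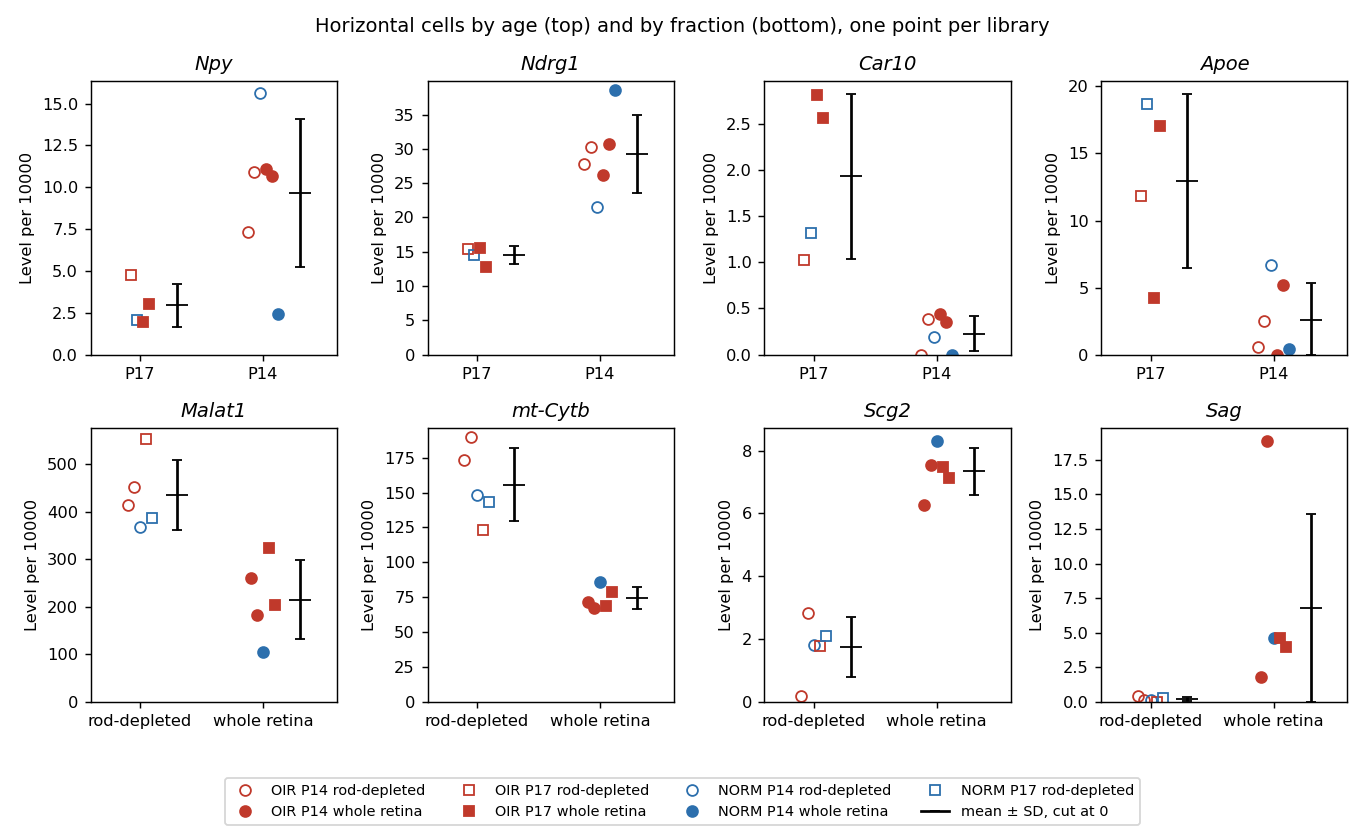
Level per 10000 in horizontal cells by library, for 4 genes by age (top, P17 left of P14) and 4 by fraction (bottom, rod-depleted left of whole retina), with the mean ± SD of each group in black; colours and symbols as for OIR and NORM. Ndrg1 lies between 12.7 and 15.5 in all P17 libraries and between 21.5 and 38.6 at P14, and Scg2 below 3 in every rod-depleted library and above 6 in every whole-retina library.

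The leading genes were also looked up in the RefSeq promoter windows, of which 17 of 25 had one. TAATTA, a core bound by many homeodomain factors, was found on either strand in 3 of 17, against 6.12% of all genes with a window. ATCAAT, a core of Onecut sites, was found in 2 of 17, against 8.63%. ACGTG was in 4 of 17 and the metal response core in 8 of 17, against 21.8% and 28.2%. These letters were counted in 300 bases only and say nothing of binding.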

How the data were processed

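The authors' Drop-seq table holds 21408 genes and 31271 cells. The deposited unit is the natural log of 1 plus normalised UMIs: exp(value) minus 1 sums to 10000 for each cell, and recovered UMIs were whole within 0.05 for 100% of non-zero values. The submitters' processing notes name STAR 2.4.0, bcl2fastq and the build mm10 (GRCm38). No annotation or rule for reads fitting several genes is stated in the labels. Cell columns were assigned to the 12 libraries by their names, which left 5799 columns in 7 sets unused.

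The members and gene lists were chosen with earlier results of these data known. Levels are means of exp(value) minus 1 over the horizontal cells of a library. Libraries with at least 10 horizontal cells (7 OIR, 3 NORM) were tested as log2(level + 0.5) with limma 3.58.1 in R 4.3.3, moderated with a trend, on exposure, age and fraction; fold changes of low genes are understated on this scale. Whole-retina OIR replicate 1 at P14 (5 cells) and whole-retina NORM at P17 (0) were therefore not in the fit. Tested genes had a mean of 0.5 or more and were detected in 3 libraries or more. P-values are two-sided and Benjamini-Hochberg adjusted over all genes tested, with a threshold of 0.05; SE follows each log2 difference and SD each mean. Amacrine-marker cells (1582) had at least 2 of Gad1, Slc32a1, Tfap2a, C1ql2 and Slc6a9 above 0, rod-bipolar-marker cells (9181) at least 2 of Pcp2, Prkca, Trpm1, Sebox and Grm6, and ganglion-marker cells (167) at least 2 of Slc17a6, Pou4f2 and Rbpms; 245 cells were in the first 2 sets. OIR effects were compared between sets as within-library differences. Shares were compared by exact permutation within strata. Named genes are members of the lists, the genes past the threshold or the 10 of smallest p in a comparison, and the 25 genes with the largest median log2 ratio that were higher in every library. A few genes are not reported here. The fit was tested on simulated data. Doublets called by Scrublet (Scanpy 1.11.5) were kept, and leaving them out was an alternative.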

Additional observations from a re-analysis of the deposited data

Results flagged for a closer look

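In 74 groups of 4 to 10 libraries, the highest or lowest horizontal cell level was set against the rest by Dixon's ratio. A total of 8 groups had a library apart. Chance alone gives about 1 in 20 only for independent groups of normally spread values. These groups share libraries and some hold levels near 0, so 8 of 74 cannot be read against that rate. Mt1 had 26.1 per 10000 in whole-retina OIR replicate 2 at P17, against 5.67 to 13.1 in the other OIR libraries. CYR61 had 6.66 in rod-depleted NORM at P14, against 0 to 0.975 in the other P14 libraries. Sag had 18.9 in whole-retina OIR replicate 3 at P14, against 1.80 to 4.60 in the other whole-retina libraries.

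Whole-retina NORM at P14 was apart for Spock3, an extracellular proteoglycan, with 7.20 against 1.72 to 3.04 in the other whole-retina libraries. Its difference of -1.34 between rod-depleted and whole retina (limma adjusted p = 0.0470) was -0.83 (adjusted p = 0.320) without that library. Spock3 was also apart in rod-depleted OIR replicate 2 at P14, with 2.28 against 0.516 to 0.998 in the other rod-depleted libraries. The remaining 3 were photoreceptor genes near 0 in rod-depleted horizontal cells. Rpgrip1 had 0.306 in NORM at P17 against 0 to 0.0840 in the others, Rom1 had 0.337 in OIR at P17 against 0 in the others, and Prph2 had 0.275 in OIR replicate 1 at P14 against 0 to 0.0308 in the others.

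The OIR effect on Scgn differed between horizontal and rod-bipolar-marker cells by 2.12 on the log2 scale, by a test of the difference itself.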

How the results depend on the processing

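Horizontal cells are few, and counts of calls moved with most choices; causes were not tested. The fits on cells with at least 3 of the 4 genes lacked whole-retina NORM at P14, which had 9 such cells. For OIR (2 calls), 0 genes passed among cells with at least 3 of the 4 genes and with libraries of at least 5 cells. The count was also 0 with a minimum mean of 2 or none, at pseudocount 1 and with libraries weighted by cells. Requiring 20 cells left 5 libraries, 1 of them NORM, with 1 residual degree of freedom, and gave 384 calls for OIR, 354 for age and 507 for fraction, none of the 384 shared with the 2. For age (5 calls), 0 passed with at least 5 cells and with a minimum mean of 2, 1 at pseudocount 0.2, 2 without Scrublet doublets, 3 with no minimum mean, 3 without the Onecut2 and Sept4 pair and 12 with weights. For fraction (31 calls), 0 passed with at least 3 of the 4 genes, 11 with at least 5 cells, 12 with a minimum mean of 2, 15 with no minimum, 20 at pseudocount 0.2 and 104 from summed UMIs. The rod-bipolar-marker difference (1 call) had 0 at pseudocount 1, and the interaction (0 calls) had 1 without the pair. Leaving out 1 library gave 0 to 2 calls for OIR, 0 to 14 for age, 13 to 44 for fraction, 0 to 1 for the interaction, 0 to 1 against amacrine-marker and 0 to 4 against rod-bipolar-marker cells.

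With the replicate number as a block, 4 genes passed for OIR (none of the 2), 39 for age and 44 for fraction; Ldha had 1.04 (adjusted p = 0.291) and Mt1 1.20 (adjusted p = 0.212) in limma. The labels do not say that numbers mark a shared batch. Only 2 groups could be compared, rod-depleted OIR at P14 and whole-retina OIR at P17. Their differences between replicates 1 and 2 had r = 0.0529 across 4276 genes, which are not independent. These groups differ in age and fraction, so this value does not decide whether numbers mark a batch.

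The P17 minus P14 share changed sign with cells of at least 1000 UMIs (-0.365 points), thinned to 500 UMIs (-0.167), with at least 3 of the 4 genes (-0.166) and without the pair (-0.0536). With 1 library left out it ran from -0.134 to 0.314 points, the OIR minus NORM share from 0.00331 to 0.600 and the rod-depleted minus whole-retina share from 0.125 to 0.450; no exact permutation p was under 0.138. Thinning left out 4096 cells under 500 UMIs.

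OIR log2 differences changed sign at 20 cells for Mt2 (-0.79), Vegfa (-1.74), Angpt2 (0.74) and Pfkp (-0.12), under the block for Vegfa (-0.21) and with at least 3 of the 4 genes for Megf10 (-0.023). With 1 library left out, Vegfa ran from -0.19 to 0.46, and the difference of the Mt1 effect from -0.55 to 0.49 against amacrine-marker and from -0.79 to 0.19 against rod-bipolar-marker cells.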

Other observations

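Some genes of the hypoxia, guidance and ion transport lists had a higher level in horizontal cells than in the remaining cells, a contrast described without a test. They were picked from these lists, and other members, such as Vegfa, were lower in horizontal cells. Pfkfb3, an activator of glycolysis, had 2.59 per 10000 in horizontal cells and 0.269 in the remaining cells. Egln3, an oxygen-sensing prolyl hydroxylase, had 0.992 and 0.134, and P4ha2, a collagen prolyl hydroxylase, 1.56 and 0.356. Sema6d, a membrane semaphorin, had 0.747 and 0.093. Slc12a2, which carries chloride into cells, had 5.45 and 0.477, and Slc12a7, which carries potassium and chloride out, 0.642 and 0.041.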
